A study of Mus musculus with 20 samples.

Results

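Intestinal tissue of 8 mice was profiled, 1 microarray per mouse, to ask how gut that carries an activated BRAF kinase responds when MEK, the kinase directly below it, is inhibited. The mice were C57BL6/j. Per the methods and legends of the study, since the labels do not state the genotype of these mice, all 8 were VillinCreER/0 BrafV600E-LSL/+ animals: tamoxifen activates a Cre recombinase whose expression the Villin promoter restricts to gut epithelium, and the recombinase switches on the mutant allele BrafV600E. After tamoxifen on consecutive days, the 4 MEKi mice were injected with PD184352, an inhibitor of MEK, and the 4 Vehicle mice with its carrier of DMSO and Cremophor EL in water. All 8 arrays lay on 1 slide and are 8 of the 20 arrays of the series. The other 12 compare BRAFV600E intestine with Cre control intestine (6 arrays each, tamoxifen-treated mice with and without the mutant allele) and are used here only where a value is set beside them. The labels also share 1 treatment text, about female mice on a statin, which fits none of these groups and was set aside. The mutant allele is induced in epithelium, whereas whole tissue was measured, so that fewer cells of a type and less RNA per cell cannot be told apart.

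Growth factor receptors activate RAS, RAS activates the RAF kinases, RAF phosphorylates MEK, and MEK phosphorylates ERK, which acts on transcription factors of the ETS and AP-1 families. ERK also switches on its own inhibitors, the DUSP phosphatases and the Sprouty and Spred proteins, whose transcripts are widely read as a gauge of pathway output. In the gut this pathway drives proliferation of crypt cells and influences which epithelial lineages form. Interferons act through a separate route, in which JAK kinases activate STAT factors that turn on antiviral genes, GTPases against intracellular pathogens, and the machinery that loads peptides onto MHC molecules.

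Levels are log2 processed intensities relative to the 75th percentile of each array, so a difference of 1 unit is a factor of 2 and a negative level means only that a probe is dimmer than that percentile. Differences are MEKi minus Vehicle. Adjusted p-values are from limma with Benjamini-Hochberg adjustment over all genes tested, and a gene was called under 0.05. Of 19165 genes tested, 390 were called (2.03%), 215 higher (1.12%) and 175 lower (0.913%) under MEKi. An unadjusted p under 0.05 was found for 3154 of the 19165, the share beside which such counts for lists are to be read. The 4 MEKi arrays did not overlap the 4 Vehicle arrays for 2343 genes (12.2%), and these included all 390 called genes. The smallest absolute difference of a called gene was 0.53, and 135 genes rose and 112 fell by more than 1 unit. The median difference of all genes tested was 0.04, and 45.4% of them were negative. Without Vehicle 2 the counts were 184 higher (0.96%) and 160 lower (0.835%), and 248 genes were called with and without that array. The count depended on single arrays: it was 76, 89 and 148 without MEKi 1, 3 and 4, and 191, 119 and 100 without Vehicle 1, 3 and 4. All 390 genes kept their direction in each of these fits, which was fixed in advance because their groups did not overlap. In every one of these fits 63 genes were called, 32 higher and 31 lower.

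**Figure D1:**
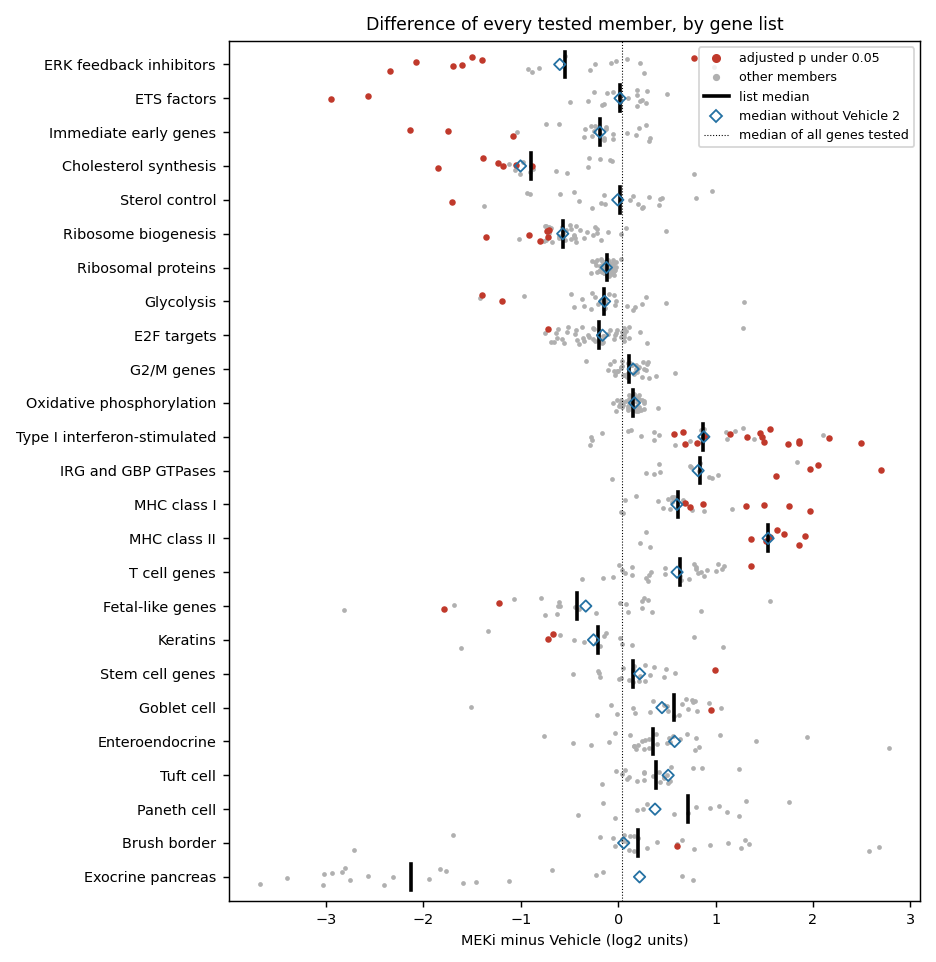
Log2 difference, MEKi minus Vehicle, of every tested member of 25 gene lists, with called genes in red, the list median as a bar and the median without Vehicle 2 as a diamond; the dotted line is the median of all genes tested, 0.04. Called members of the ERK (Dusp16 excepted), cholesterol and ribosome biogenesis lists lie to the left and those of the interferon and MHC lists to the right, and the exocrine pancreas median moves from -2.13 to 0.22 when Vehicle 2 is left out.

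Some differences between the arrays ran across the groups. Vehicle 2 carried transcripts of the exocrine pancreas: the mean level of 22 pancreas genes was 6.86 on that array and between -1.57 and -1.14 on the other 7, and Cpa1, a digestive carboxypeptidase, stood at 8.35 against -6.07 to -4.20. The same array was high for 15 proximal intestine genes (4.83 against 3.04 to 3.54) and low for 14 distal intestine genes (-0.16 against 2.03 to 3.23). Y-linked genes were low on Vehicle 2 and Vehicle 4 (mean levels of -5.94 and -6.25) and high on the other 6 arrays (-1.29 to -0.96). Xist, a transcript of female cells, was highest on Vehicle 2 and Vehicle 4 (-3.84 and -2.05 against -8.03 to -5.88). By these markers Vehicle 2 and Vehicle 4 came from females and the other 6 arrays from males, although the labels give no sex. The Vehicle group was thus mixed in this respect and the MEKi group was not. The MEKi arrays filled row 1 of the slide and the Vehicle arrays row 2, and row and group cannot be told apart. Between 70.6% and 74.5% of gene spots were well above background on the MEKi arrays and between 60.8% and 72.6% on the Vehicle arrays, no spot was saturated, and arrays of a group correlated at 0.970 to 0.992 (MEKi) and 0.963 to 0.988 (Vehicle) across probes, which are not independent. The number of arrays limits the precision. Of the epithelium's own markers, Vil1, the villin that bundles actin in the brush border, had levels of 7.31, 7.65, 7.16 and 7.24 on the MEKi arrays and 7.44, 6.91, 7.56 and 7.28 on the Vehicle arrays. Alpi, an alkaline phosphatase of the brush border, was at 4.26, 5.41, 4.17 and 4.56 against 5.56, 7.84, 5.72 and 6.06. Its groups did not overlap, but it was not called (-1.69, adjusted p 0.157, and -1.18, adjusted p 0.114 without Vehicle 2). Of 27 brush border and digestion genes tested, 22 were higher and 5 lower.

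Transcripts that gauge ERK output fell. Etv4 (probe at chr11:101631057-101631116, build mm9, as are all probe positions here) and Etv5 (chr16:22381387-22381446), ETS factors of the PEA3 group, were the called members of their family. The level of Etv4 was -0.32, -1.09, -0.72 and -0.15 on the MEKi arrays against 2.25, 2.66, 2.51 and 2.11 on the Vehicle arrays, a fall of 2.95 (SE 0.23, adjusted p 0.00327). Etv5 was at -1.12, -1.24, -1.03 and -1.48 against 1.02, 1.61, 1.44 and 1.31, a difference of -2.57 (SE 0.17, adjusted p 0.00155). For both genes every MEKi array lay more than 2 units below every Vehicle array, and both were called in all 8 fits with 1 array left out. The rest of the family did not share this: of 20 ETS factors tested only these fell, 0 rose, and the median difference was 0.02.

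Among the feedback inhibitors, 6 of 19 fell, 1 rose and the median difference was -0.55. Spry4, a Sprouty protein that dampens receptor signalling to RAS, was at -5.25, -5.12, -4.63 and -5.48 under MEKi and at -3.00, -3.02, -2.26 and -2.85 with vehicle (difference -2.34, SE 0.24, adjusted p 0.00514). Spred1, which brings the RAS inhibitor neurofibromin to the membrane, was at -1.84, -1.45, -1.24 and -1.88 against -0.08, 0.06, -0.03 and 0.06 (-1.61, adjusted p 0.00593). In both, the lowest Vehicle array lay above the highest MEKi array by more than the range of either group. Errfi1, an inhibitor of the EGF receptor, fell by 2.07 (adjusted p 0.0216), the ERK phosphatase Dusp4 by 1.70 (adjusted p 0.0146) and Spry1 by 1.40 (adjusted p 0.0195). Dusp6, the phosphatase most specific for ERK, was at 2.45, 3.48, 2.58 and 2.26 against 4.17, 4.40, 4.55 and 3.66. Its difference of -1.50 stood at the threshold (SE 0.30, adjusted p 0.0499) and missed it without Vehicle 2 (-1.43, adjusted p 0.0876), and its nearest arrays, MEKi 2 and Vehicle 4, almost met. Spry2 (-0.81, adjusted p 0.111) and Dusp5 (-0.24, adjusted p 0.644) were not called. Dusp16, a phosphatase directed at JNK and p38 rather than ERK, moved the other way, from 1.69, 1.77, 1.60 and 1.55 to 2.48, 2.48, 2.54 and 2.25 (0.78, adjusted p 0.0208). With a covariate for Y-linked signal, 2 of the 19 fell, 0 rose and the median was -0.75.

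Immediate early genes followed in part: 3 of 25 fell, 0 rose, and the median difference was -0.19. These were Phlda1, a pleckstrin homology protein induced by growth factors (-2.14, SE 0.38, adjusted p 0.0335), Plaur, the urokinase receptor (-1.74, SE 0.22, adjusted p 0.0136), and the small MAF factor Maff (-1.08, adjusted p 0.0412). Phlda1 was at 0.87, 1.85, 1.43 and 0.69 on the MEKi arrays and at 2.94, 3.18, 4.33 and 2.94 on the Vehicle arrays, with Vehicle 3 far above the others. It was called in only 1 of the 8 fits with an array left out, and not without Vehicle 2 (adjusted p 0.0521). The classical member Egr1 had a difference of -1.04 and was not called (adjusted p 0.197), with overlapping groups. Of 22 genes at the level of RAS, RAF, MEK and ERK, 0 were called and 4 had an unadjusted p under 0.05, with a median difference of -0.05. Braf itself was at -0.92, -0.42, -0.68 and -0.68 under MEKi and -0.27, 0.14, -0.44 and -0.13 with vehicle (-0.50, SE 0.17, adjusted p 0.188), and the probe does not separate the mutant from the normal allele. The inhibitor's targets Map2k1 (-0.37, adjusted p 0.559) and Map2k2 (-0.25, adjusted p 0.472) were not called. Of 16 EGF family ligands and receptors, 1 fell: Btc, the ligand betacellulin (-1.34, adjusted p 0.049).

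**Figure D2:**
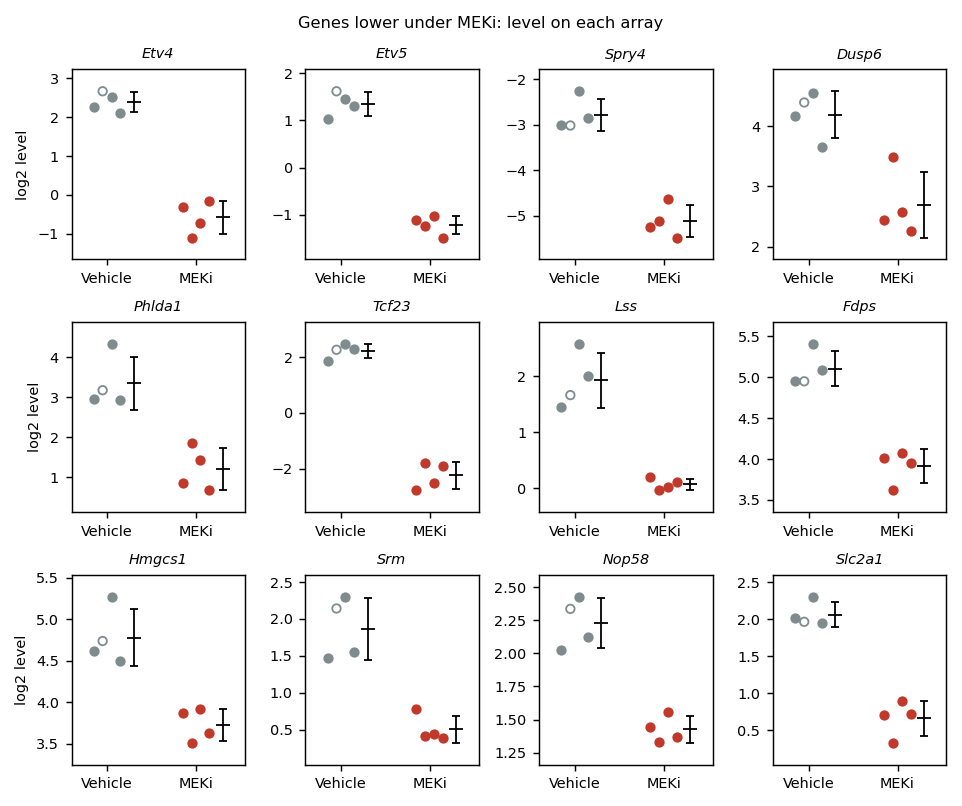
Log2 level on each of the 4 Vehicle (grey) and 4 MEKi (red) arrays for 12 genes that were lower under MEKi, with Vehicle 2 as an open circle and the mean and SD of each group as black bars. In each panel all 4 MEKi arrays lie below all 4 Vehicle arrays, by the least for Dusp6, where MEKi 2 is at 3.48 and Vehicle 4 at 3.66.

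Of the 12 largest called falls, Etv4 was the only member of the ERK feedback and ETS lists. Tcf23, a helix-loop-helix factor, was at -2.77, -1.80, -2.51 and -1.89 under MEKi and at 1.87, 2.26, 2.47 and 2.28 with vehicle (-4.46, SE 0.25, adjusted p 0.00113). Tm4sf4 fell by 4.13 (adjusted p 0.00327), Ankrd22 by 3.47 (adjusted p 0.00113) and 3930402G23Rik by 3.07 (adjusted p 0.00394). Mboat1, an acyltransferase of membrane phospholipids, fell by 2.25 (adjusted p 0.0039), Paqr8, a membrane progesterone receptor, by 3.00 (adjusted p 0.00435), and Phlda2 by 2.65 (adjusted p 0.00505). Pgap1, which remodels GPI anchors, went from 0.53, 0.32, 0.71 and 0.84 to -1.95, -1.54, -1.26 and -1.71 (-2.21, adjusted p 0.00327). Each of these was called in all 8 fits with an array left out. Aqp5, a water channel of glands, was well above background on only 2 of 4 MEKi arrays, where its 4 levels ran from -6.38 to -5.00 against -1.30 to 0.72 with vehicle. Slc27a6, a fatty acid transporter, was well above background on 0 of 4 MEKi arrays and therefore at least 8.57-fold lower (adjusted p 0.0061), a bound set by the dimmest measurable signal of each array. Il1rn, the antagonist of the interleukin 1 receptor, was at -3.63, -3.91, -3.07 and -3.14 against -1.32, -1.18, -1.45 and -1.39 (-2.10, SE 0.20, adjusted p 0.00489). Without Vehicle 2 the differences were -4.45 for Tcf23, -2.31 for Pgap1 and -2.05 for Il1rn, all called. That array mattered for Anxa10, an annexin of gastric epithelium, which was at 4.64 on Vehicle 2 and at -2.21, -2.31 and -0.69 on the other Vehicle arrays. Anxa10 was not called with it (-4.71, SE 1.48, adjusted p 0.166) or without it (-3.12, adjusted p 0.0679).

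Cholesterol synthesis was lower along most of the pathway. Of 20 enzymes tested, 19 were lower, 6 fell and 0 rose, the groups did not overlap for 12, and the median difference was -0.89. Early in the pathway, Hmgcs1, which makes HMG-CoA, fell by 1.05 (adjusted p 0.0389) and Mvk, mevalonate kinase, from 4.20, 3.85, 4.70 and 4.27 to 2.96, 2.74, 2.72 and 3.04 (-1.39, SE 0.19, adjusted p 0.0156). Fdps, which makes farnesyl diphosphate, fell by 1.19 (adjusted p 0.0151) and Idi1 by 0.88 (adjusted p 0.0468). At the branch to sterols, Fdft1, squalene synthase, fell by 1.24 (adjusted p 0.0282). Lss (chr10:76016592-76016651), which closes squalene epoxide into lanosterol, showed the largest fall of the list: it was at 0.20, -0.03, 0.02 and 0.10 under MEKi and at 1.44, 1.66, 2.58 and 2.01 with vehicle (-1.85, SE 0.24, adjusted p 0.0134). Its 4 MEKi arrays were nearly level, while the Vehicle arrays spread over more than 1 unit. Sqle, squalene epoxidase, was not called (-0.98, adjusted p 0.137). Without Vehicle 2, Hmgcs1 and Idi1 lost their calls (adjusted p 0.0647 and 0.0731).

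Of 23 genes of sterol control, 1 fell and 0 rose, with and without Vehicle 2, and the median difference was 0.02. The groups did not overlap for 5, each of them lower, and 7 had an unadjusted p under 0.05. The differences of Insig1, which holds SREBP in the endoplasmic reticulum (-1.38, adjusted p 0.112) and of Srebf2, the gene of SREBP2 (-0.60, adjusted p 0.16), did not pass the test although their groups did not overlap. Of 17 fatty acid synthesis genes, 1 fell, the desaturase Scd2 (-1.52, adjusted p 0.0255), and the median difference was -0.14. Without Vehicle 2, 5 of the 20 cholesterol enzymes fell (median -1.003). With a covariate for Y-linked signal, 0 were called, with 20 of 20 lower and a median difference of -0.97.

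Genes of growth were lower by small amounts. Of 46 genes of ribosome biogenesis and other genes that MYC is known to drive, 43 were lower, 6 fell and 0 rose. The groups did not overlap for 27, and the median difference was -0.57. The list, labelled ribosome biogenesis in the figures and below, also holds genes of other functions, such as Srm. Srm, spermidine synthase, was at 0.78, 0.42, 0.44 and 0.39 against 1.47, 2.14, 2.30 and 1.56 (-1.36, SE 0.22, adjusted p 0.0254). Nop58, a core protein of small nucleolar RNPs, was at 1.45, 1.33, 1.56 and 1.36 against 2.02, 2.34, 2.43 and 2.12 (-0.80, SE 0.13, adjusted p 0.0267). The groups did not overlap for either gene. Nolc1 (-0.92, adjusted p 0.0415), Nop16 (-0.73, adjusted p 0.034), Nle1 (-0.72, adjusted p 0.0412) and Nop2 (-0.71, adjusted p 0.0486) were the other calls. Without Vehicle 2 only Srm, which is not itself a ribosome biogenesis gene, was called in this list (adjusted p 0.0443). The list median was again -0.57. With a covariate for Y-linked signal 0 were called and the median was -0.61. Myc itself was lower by 1.00 and not called (adjusted p 0.111), with overlapping groups. The 56 cytosolic ribosomal protein genes tested had 0 calls, 0 at an unadjusted p under 0.05, 55 lower and a median difference of -0.11.

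In energy metabolism the largest called fall was that of Slc2a1 (chr4:118809864-118809923), the glucose transporter GLUT1. It was at 0.71, 0.33, 0.89 and 0.72 under MEKi and at 2.02, 1.97, 2.31 and 1.95 with vehicle (-1.40, SE 0.16, adjusted p 0.0083), and was called in all 8 fits with an array left out. Pfkl, a phosphofructokinase of glycolysis, was called lower by 1.19 (adjusted p 0.0475), but 1 of its 3 measurable probes was higher, the mean of its probes differed by -0.53, and the call was lost in 16 of 23 alternative fits, among them that without Vehicle 2 (adjusted p 0.0842). The other 27 of 29 glycolysis genes were not called, and the list median was -0.14. Oxidative phosphorylation subunits were higher in 43 of 46 cases, with 0 calls, 1 at an unadjusted p under 0.05 and a median difference of 0.15. In the cell cycle, 1 of 51 E2F targets fell, the replication helicase subunit Mcm3 (-0.73, adjusted p 0.0412, and 0.054 without Vehicle 2), with 38 lower and a median difference of -0.20, whereas the 40 genes of G2 and mitosis had 0 calls, 0 at an unadjusted p under 0.05, 31 higher and a median difference of 0.11. The D cyclins and cell cycle inhibitors had 0 of 25 called and 4 at an unadjusted p under 0.05 (median 0.01).

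Interferon-stimulated genes rose. Of 38 type I interferon-stimulated genes tested, 34 were higher, 16 rose and 0 fell, the groups did not overlap for 29, and the median difference was 0.87. Zbp1 (chr2:173039307-173039366), a sensor of Z-form nucleic acids, was at 2.55, 2.58, 2.77 and 2.17 under MEKi and at 0.09, 0.21, 0.39 and -0.58 with vehicle (2.49, SE 0.23, adjusted p 0.00435). Ifit1, which binds viral RNA ends, was at -0.01, 0.81, 1.29 and 0.71 against -1.74, -1.63, -1.36 and -1.12 (2.16, SE 0.27, adjusted p 0.0133). Isg15, a ubiquitin-like modifier, was at 3.94, 4.81, 4.47 and 4.12 against 2.57, 2.55, 2.85 and 2.38 (1.74, SE 0.21, adjusted p 0.0108). No MEKi array reached down to a Vehicle array for any of these, and each was called in all 8 fits with an array left out. Ifit3 rose by 1.55 (adjusted p 0.00327), Ifi44 by 1.86 (adjusted p 0.0213) and Usp18, which removes Isg15 from proteins, by 1.85 (adjusted p 0.0389). Stat2, a transcription factor that carries the signal of type I interferon, rose by 0.69 (adjusted p 0.0412). Usp18 and Stat2 lost their calls without Vehicle 2 (adjusted p 0.0708 and 0.0714). Without Vehicle 2, 11 of the 38 rose, 0 fell and the median difference was 0.88. With a covariate for Y-linked signal, 3 of the 38 rose and the median was 0.85.

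The GTPases that interferon gamma induces followed, with 16 of 17 higher, 4 called higher, 0 called lower and a median difference of 0.83. Ifi47 was at 2.68, 2.38, 2.93 and 2.55 under MEKi and at 0.76, 0.40, 0.88 and 0.64 with vehicle (1.97, SE 0.16, adjusted p 0.00327), and was called in all 8 fits with an array left out. Igtp was at 3.66, 2.11, 3.96 and 3.82 against 1.12, 0.22, 1.17 and 0.26 (2.69, SE 0.44, adjusted p 0.0262). MEKi 2 was the lowest MEKi array for both genes, by more than 1 unit for Igtp. Irgm1 rose by 1.62 (adjusted p 0.0203) and Gbp6 by 2.05 (adjusted p 0.0208), while Irgm2 was higher by 1.84 and not called (adjusted p 0.0787). These genes form families of similar sequence, and how far their probes share signal is uncertain. Of 26 interferon ligands, receptors and regulators, 3 rose and 1 fell. Stat2 and Socs3, an inhibitor of JAK signalling (1.18, adjusted p 0.0216), were among those that rose, and Cgas, the sensor of cytosolic DNA, fell by 0.91 (adjusted p 0.0255). Ifng, the gene of interferon gamma, was at -3.41, -5.16, -3.62 and -3.74 against -4.50, -5.59, -5.61 and -6.08 and was not called (1.47, adjusted p 0.162), and Irf1 was not called (0.61, adjusted p 0.179). Il18bp, a decoy receptor of interleukin 18, rose by 1.57 (adjusted p 0.0298, and 0.0552 without Vehicle 2). With a covariate for Y-linked signal 1 of the 17 GTPases rose and their median was 0.80.

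The promoters of listed and called genes were read from RefSeq (build GRCm38.p6), as windows from 250 bases before to 50 after each transcription start. Of the 38 type I genes 28 had a window, and of the 17 GTPases 9. The letters GAAANNGAA, the core of the interferon-stimulated response element, were looked for on both strands. They occurred in 8.56% of all 32851 windows, in 46.9% of the 32 windows of the type I genes, and in 8 of the 10 windows of the GTPases. They occurred in 23.8% of the 21 windows of the MHC class I genes, in 1 of the 8 windows of the MHC class II genes, in 15.6% of the 199 windows of all genes called higher and in 3.05% of the 164 windows of all genes called lower. TTCNNNGAA, the letters of the interferon gamma-activated site, which can overlap the first motif, occurred in 8.3% of all windows, in 5 of the 10 windows of the GTPases, in 18.8% of those of the type I genes, in 9.52% of those of MHC class I, in 0 of the 8 of MHC class II, in 11.1% of those of all genes called higher and in 7.32% of those of all genes called lower. Among the lists that held genes called lower, the sterol regulatory element TCACNCCA occurred in 2 of the 18 windows of cholesterol synthesis (4.36% of all windows), the ETS site CCGGAAG in 0 of the 16 of the ERK feedback inhibitors and in 30.2% of the 43 of ribosome biogenesis (8.86% of all), and the E-box CACGTG in 23.3% of those of ribosome biogenesis (7.15% of all). A match is a description of the letters and not evidence of binding. The interferon lists hold genes known to respond to interferon, so their shares follow from that choice and not from these arrays. The genes called higher include members of these lists. The windows of 2 type I genes and 2 GTPases, all with a match, are shown as examples that were not picked by rule. Every match to GAAANNGAA on either strand is in capitals (overlapping matches run together). Isg15 lies on chr4:156200769-156201068, minus strand, with 3 matches in 1 run, Ifit3 on chr19:34583279-34583578, plus strand, with 3 separate matches, Igtp on chr11:58199306-58199605, plus strand, with 1 match, and Irgm1 on chr11:48871371-48871670, minus strand, with 2 matches in 1 run.
Isg15: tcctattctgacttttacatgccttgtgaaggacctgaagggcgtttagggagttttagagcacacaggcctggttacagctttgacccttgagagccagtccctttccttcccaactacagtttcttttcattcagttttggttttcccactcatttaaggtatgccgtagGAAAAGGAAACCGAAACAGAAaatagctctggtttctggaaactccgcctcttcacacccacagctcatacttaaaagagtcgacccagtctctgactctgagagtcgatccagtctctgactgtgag
Ifit3: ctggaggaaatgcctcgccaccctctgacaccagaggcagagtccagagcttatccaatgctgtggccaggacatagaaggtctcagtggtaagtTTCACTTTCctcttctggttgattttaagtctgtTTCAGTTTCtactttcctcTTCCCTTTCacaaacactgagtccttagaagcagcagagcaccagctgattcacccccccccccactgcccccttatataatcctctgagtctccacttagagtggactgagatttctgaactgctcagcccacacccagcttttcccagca
Igtp: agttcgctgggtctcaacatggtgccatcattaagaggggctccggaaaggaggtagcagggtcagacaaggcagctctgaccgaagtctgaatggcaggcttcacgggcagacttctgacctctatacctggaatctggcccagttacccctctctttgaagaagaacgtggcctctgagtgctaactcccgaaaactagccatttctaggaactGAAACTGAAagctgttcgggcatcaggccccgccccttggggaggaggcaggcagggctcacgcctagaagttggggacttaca
Irgm1: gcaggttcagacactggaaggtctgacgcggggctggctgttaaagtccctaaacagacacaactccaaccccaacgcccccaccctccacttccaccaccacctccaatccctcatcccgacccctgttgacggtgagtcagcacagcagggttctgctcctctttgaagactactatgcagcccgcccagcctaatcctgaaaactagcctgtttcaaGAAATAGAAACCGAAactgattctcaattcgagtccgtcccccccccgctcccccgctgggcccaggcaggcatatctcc

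Calls among the genes of MHC class I presentation fell on the proteasome, the peptide transporter, the light chain and 1 heavy chain. All 24 genes tested were higher, 7 rose and 0 fell, the groups did not overlap for 17, and the median difference was 0.61. Psmb8, an immunoproteasome subunit, was at 4.33, 4.06, 4.56 and 4.33 under MEKi and at 2.42, 2.45, 2.59 and 1.93 with vehicle (1.97, SE 0.18, adjusted p 0.00403). Tap1, a subunit of the transporter that carries peptides to class I, was at 3.23, 2.76, 3.16 and 3.34 against 1.59, 1.17, 1.49 and 1.21 (1.76, SE 0.17, adjusted p 0.00489). Psmb9 (1.50, adjusted p 0.00435) and Tap2 (1.32, adjusted p 0.0083) behaved alike, and all of these were called in the 8 fits with an array left out. Psmb10 rose by 0.87 (adjusted p 0.0461), fitted without Vehicle 2, whose spot was an outlier. B2m, the light chain, was at 6.97, 7.37, 7.10 and 6.95 against 6.43, 6.31, 6.50 and 6.41 (0.68, SE 0.13, adjusted p 0.0427). It was called in 0 of the 8 fits with an array left out (adjusted p 0.0767 without Vehicle 2). The heavy chain H2-K1 had levels of 7.50, 7.82, 7.43 and 7.48 against 7.14, 6.61, 7.39 and 6.87 and was not called (0.56, adjusted p 0.194), and the non-classical H2-T3 was at the threshold (0.74, adjusted p 0.0499) and was called in 0 of the 8 fits with an array left out. Nlrc5, the transactivator of class I genes, was at -1.62 on MEKi 2, among the Vehicle levels of -2.20 to -1.31, and at -0.29 to -0.08 on the other MEKi arrays (1.17, adjusted p 0.157). With a covariate for Y-linked signal 3 of the 24 rose and the median was 0.56.

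Of the 25 lists plotted, MHC class II had the highest median difference. All 10 genes tested were higher, 7 rose and 0 fell, and the median difference was 1.54. Without Vehicle 2, 5 rose and the median was again 1.54, and with a covariate for Y-linked signal 1 rose (median 1.47). Ciita (chr16:10526458-10526517), the transactivator of class II genes, was at 2.78, 2.03, 2.67 and 2.52 under MEKi and at 0.51, 0.54, 0.87 and 0.64 with vehicle (1.86, SE 0.18, adjusted p 0.00505), and was called in all 8 fits with an array left out. H2-Ab1, a class II chain, was at 6.86, 6.50, 6.74 and 6.52 against 4.63, 4.78, 5.75 and 4.95 (1.63, SE 0.24, adjusted p 0.0208). Cd74, the invariant chain, was at 6.80, 5.91, 6.50 and 6.30 against 4.53, 4.90, 5.31 and 4.53 (1.56, SE 0.24, adjusted p 0.0231). The groups did not overlap for any of these 3, and Vehicle 3 was the highest Vehicle array in each. H2-Aa rose by 1.52 (adjusted p 0.0456), H2-Eb1 by 1.36 (adjusted p 0.0231), and H2-DMa and H2-DMb1, which edit the peptides of class II, by 1.70 (adjusted p 0.0213) and 1.92 (adjusted p 0.0296). H2-Aa and H2-DMb1 lost their calls without Vehicle 2 (adjusted p 0.0742 and 0.0552). The probes of H2-DMa, H2-DMb1, Psmb9, Tap1, Psmb8, Tap2, H2-Ab1, H2-Aa and H2-Eb1, all called higher, lie in this order on chromosome 17, from 34274300 to 34453134. H2-Ob, the other gene tested with a probe in this stretch, was not called (0.29, adjusted p 0.754). Apol10a, of an apolipoprotein L family with 9 members tested and all 9 higher, was at 5.23, 4.94, 5.16 and 4.61 against 2.24, -0.47, 2.16 and 1.49, a rise of 3.63 (adjusted p 0.0224) that was 3.02 without Vehicle 2.

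**Figure D3:**
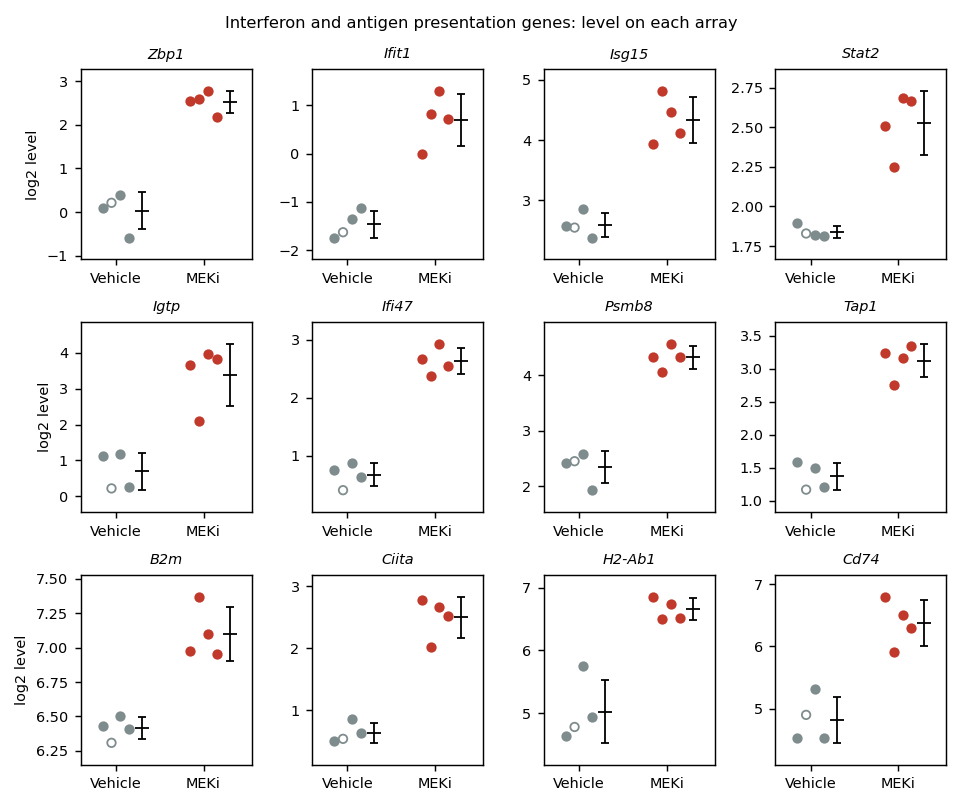
Log2 level on each of the 4 Vehicle (grey) and 4 MEKi (red) arrays for 12 interferon-stimulated and antigen presentation genes, with Vehicle 2 as an open circle and the mean and SD of each group as black bars. All 4 MEKi arrays lie above all 4 Vehicle arrays in each panel, and MEKi 2 is the lowest MEKi array for Igtp (2.11) and the highest for Isg15 (4.81).

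Class II genes are made by antigen-presenting cells and, under interferon gamma, by gut epithelium, so markers of blood cells were set beside them. Of 21 myeloid genes, 11 were higher, 0 were called, 1 had an unadjusted p under 0.05 and the median difference was 0.01, with mean levels from -0.37 to 0.19 on the MEKi arrays and from -0.22 to 0.46 on the Vehicle arrays. Of 14 B and plasma cell genes, 7 were higher, 1 fell and 0 rose (median -0.11), with mean levels from -1.29 to 0.01 and from -0.82 to -0.35. Of 29 T cell and cytotoxic genes, 26 were higher, 1 rose, 0 fell, 16 had an unadjusted p under 0.05 and the median difference was 0.64. The groups did not overlap for 8 of these genes. With a covariate for Y-linked signal 0 of the 29 were called (median 0.55). Their mean levels were -0.13, -0.59, -0.29 and 0.14 on the MEKi arrays and -0.80, -0.64, -0.59 and -1.02 on the Vehicle arrays, where MEKi 2 met the Vehicle range. Gzmb, granzyme B of cytotoxic lymphocytes, was at 1.56, 0.85, 1.72 and 1.43 against -0.34, 0.53, 0.31 and -0.37 (1.36, adjusted p 0.0494). Gzma (1.07, adjusted p 0.132) and Cd8a (0.92, adjusted p 0.0721) were not called, and Cd8a was called without Vehicle 2 (1.11, adjusted p 0.0203). Whether more T cells account for any part of the interferon or MHC differences was not tested. Of 34 chemokines and their receptors 1 was called, Cxcl16, a membrane-bound ligand of Cxcr6, which fell from 1.27, 1.07, 1.11 and 1.24 to -0.25, -0.14, 0.18 and -0.08 (-1.24, SE 0.13, adjusted p 0.0061).

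Of the epithelial lineage genes few passed the test. Of 23 goblet cell genes, 19 were higher and 1 rose, Rep15 (0.95, adjusted p 0.0231), with 11 at an unadjusted p under 0.05 and a median of 0.57. Muc2, the main mucin of goblet cells, was at 7.37, 7.66, 6.96 and 6.83 against 6.65, 5.49, 7.08 and 6.56 and was not called (0.76, adjusted p 0.325), with Vehicle 2 lowest. Of 22 stem cell genes 1 rose, Ascl2, a Wnt-driven factor of crypt base cells, from 0.13, 0.24, 0.38 and 0.20 to 1.63, 1.09, 0.90 and 1.33 (1.00, SE 0.17, adjusted p 0.0307). This call was fragile: 1 of its 2 measurable probes was lower under MEKi, the mean of both differed by 0.17 (adjusted p 0.853), and it was called in 1 of the 8 fits with an array left out and not without Vehicle 2 (adjusted p 0.0547). Lgr5, the receptor that marks the same cells, was not called (0.36, adjusted p 0.577). Sfrp5, a secreted Wnt antagonist of the crypt, rose by 2.32 (adjusted p 0.034). Among factors of epithelial identity, Gfi1, which secretory precursors use, rose by 0.88 (adjusted p 0.0336). No gene was called of 30 enteroendocrine genes (7 at an unadjusted p under 0.05, median 0.35), 22 tuft cell genes (2, median 0.39), 15 Paneth cell genes (4, median 0.72) or 7 Reg family genes (2, median 0.80).

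Several of these lineage values turned on Vehicle 2. Without it 3 enteroendocrine genes rose, among them Gcg, the proglucagon gene, which was at 1.51, 1.33, 1.55 and 1.21 under MEKi and at -0.03, -2.52, 0.29 and 0.12 with vehicle (1.27, adjusted p 0.0165 without Vehicle 2, against 1.94 and 0.15 with it). The Paneth median went from 0.72 to 0.38 and that of the Reg family, which includes pancreatic members, from 0.80 to 1.81. Reg3g, an antimicrobial lectin of enterocytes, was at 8.99, 8.70, 8.43 and 7.85 against 7.70, 6.08, 6.60 and 5.74 and was not called with (1.96, adjusted p 0.0662) or without that array (1.81, adjusted p 0.108). Brush border and digestion genes had 1 call of 27, the fructose transporter Slc2a5 (0.61, adjusted p 0.0384, and 0.0507 without Vehicle 2), and their median went from 0.20 to 0.06. Smooth muscle genes were low on Vehicle 2 and Vehicle 4 (mean levels of 0.42 and -0.03 against 1.21 to 2.16 on the other 6), and their median difference of 0.67 (0 of 13 called and 0 at an unadjusted p under 0.05) was -0.19 on the 6 arrays with a high Y-linked signal. Fibroblast genes had 0 of 16 called, 2 at an unadjusted p under 0.05 and a median of -0.12. Of 12 adipocyte and red cell genes, 8 were higher, 4 lower, 0 called and 4 at an unadjusted p under 0.05 (median 0.50). Their mean levels were -0.68, -0.35, -0.76 and -0.82 on the MEKi arrays and -0.66, -1.73, -2.33 and -2.40 on the Vehicle arrays. Only Vehicle 1 lay within the MEKi range, and the cause of this difference was not tested.

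**Figure D4:**
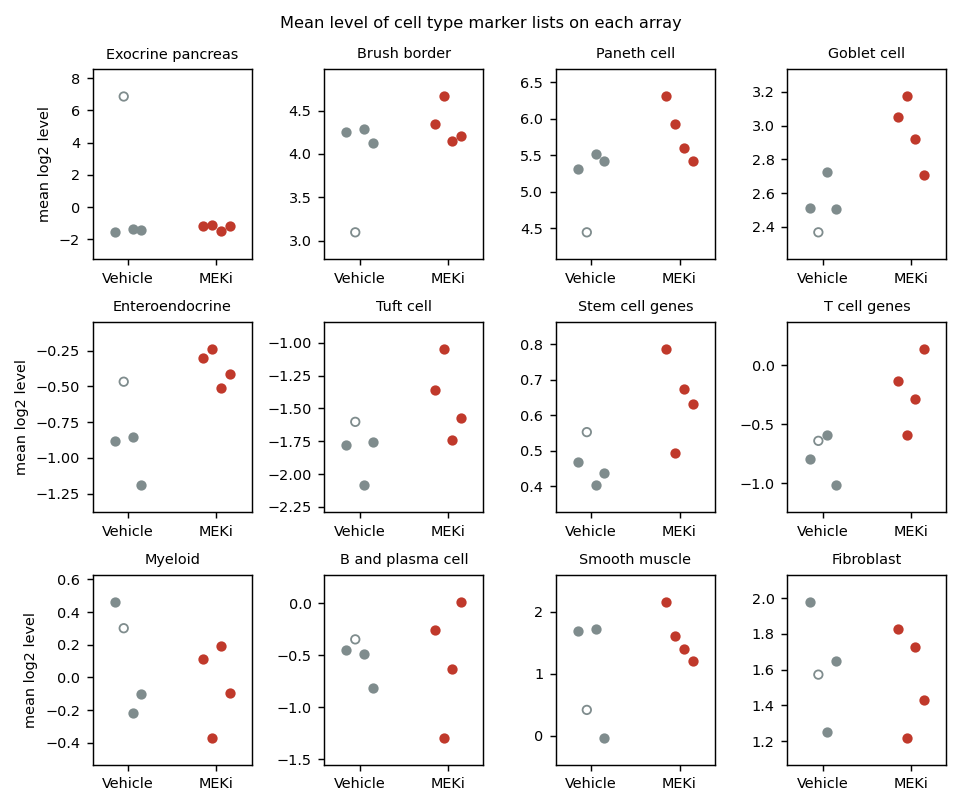
Mean log2 level of 12 marker lists on each of the 4 Vehicle (grey) and 4 MEKi (red) arrays, with Vehicle 2 as an open circle. Vehicle 2 stands at 6.86 for exocrine pancreas and is lowest for the brush border (3.10), and myeloid, B cell and fibroblast lists overlap between the groups.

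Genes tied to injury repair and to a fetal-like state of the epithelium were lower where they were called. Of 24 tested, 2 fell and 0 rose, with a median of -0.42 and, without Vehicle 2, 4 fell and 0 rose. S100a6, a calcium-binding protein, was at 6.01, 5.62, 5.35 and 5.75 against 7.45, 7.64, 7.63 and 7.16 (-1.79, SE 0.18, adjusted p 0.00505), with every MEKi array more than 1 unit below every Vehicle array, and S100a11 fell by 1.22 (adjusted p 0.0333). Of 16 keratins, Krt19 (-0.72, adjusted p 0.0296, and 0.0552 without Vehicle 2) and Krt18 (-0.67, at the threshold and called in 0 of the 8 fits with an array left out) fell, and Krt7 was not called (-0.60, adjusted p 0.0917). Cd44, an adhesion receptor and Wnt target, fell by 0.91 (adjusted p 0.0293, and 0.0507 without Vehicle 2). It was the only call among 18 Wnt targets, of which 12 were higher, 6 lower and 9 at an unadjusted p under 0.05 (median 0.29). No call fell on 22 Notch pathway genes (4 at an unadjusted p under 0.05, median 0.15), 29 BMP and TGF-beta genes (8, median 0.09), 14 Kruppel-like factors (3, median -0.13) or 21 circadian clock genes (6, median 0.003). Calls elsewhere included Gsta2, a glutathione transferase (-1.88, adjusted p 0.0262), the ephrins Efnb2 (-0.78, adjusted p 0.0262) and Efna4 (1.03, adjusted p 0.0347), the tight junction claudin Cldn14 (-1.15, adjusted p 0.011), the BH3 protein Pmaip1 (-0.90, adjusted p 0.0389, and 0.0712 without Vehicle 2), the amino acid transporter Slc36a1 (1.99, adjusted p 0.0336) and the drug-metabolising Cyp2b10 (1.90, adjusted p 0.0412). Of 18 genes of dietary fat uptake, 1 rose and 1 fell, with a median of -0.08, and 0 were called without Vehicle 2. The gene that rose was the apolipoprotein gene Apoc3 (1.34, adjusted p 0.0486, and 0.0734 without Vehicle 2). Of the 390 called genes 94 were in one of the 64 lists and 296 in none.

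Among the rises least dependent on any array, the tightest was Pipox, an oxidase of peroxisomes, at 2.18, 2.21, 2.13 and 2.25 under MEKi and 0.59, 0.41, 0.25 and 0.08 with vehicle (1.86, SE 0.13, adjusted p 0.00284). Its 4 MEKi arrays were nearly level. Iqcg rose by 2.08 (adjusted p 0.00327), Tnfsf10, the death ligand TRAIL, by 2.06 (adjusted p 0.00674) and the tubulin Tubb2b by 1.94 (adjusted p 0.00674), and each was called in all 8 fits with an array left out. Prss12, a serine protease, rose by 2.58 (adjusted p 0.0463) from levels of -1.55, -3.85, -1.61 and -1.87 to 0.62, -0.04, 0.74 and 0.13, and by 2.04 without Vehicle 2, its lowest array. Some large fitted rises started below background and have only a bound: Pdilt was at least 2.44-fold higher (adjusted p 0.0142), Sypl2 at least 2.16-fold (adjusted p 0.0158) and Mtnr1a at least 1.46-fold (adjusted p 0.0216). In all, 14 called genes had only a bound.

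The same genes were read in the other experiment of the series, 6 BRAFV600E against 6 Cre control arrays on other slides, with no sample in common. Per the methods of the study, the dose and days of tamoxifen differed between the experiments. Only the MEKi and Vehicle mice were then injected with inhibitor or carrier. Group and slide were largely confounded there: all 6 Cre control arrays and 2 BRAFV600E arrays lay on 1 slide and the other 4 BRAFV600E arrays on another. There 1177 of 18978 genes were called higher (6.2%) and 1196 lower (6.3%). Of 173 genes that fell under MEKi and were tested in both, 124 (71.7%) were called higher in BRAFV600E, which is 10.54% of the 1176 called higher there, and 0 were called lower. Of 206 genes that rose under MEKi, 82 (39.8%) were called lower in BRAFV600E, 7.06% of the 1162 called lower there, and 0 were called higher. The sign was opposite for 169 of the 173 and 199 of the 206. With the slide as a block in the BRAFV600E fit these counts were 94 of 171 and 101 of 205, or 20.26% of the 464 called higher and 9.59% of the 1053 called lower there, and without Vehicle 2 they were 106 of 158 and 80 of 176.

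The gene groups differed in what lay beside them. For the feedback inhibitors the BRAFV600E median was 0.70, with 10 of 19 called higher, and for cholesterol synthesis 0.93, with 14 of 20 called higher. Etv4 stood at 2.50 (adjusted p 0.00017) and Lss at 1.42 (adjusted p 0.0013) in that comparison, opposite to -2.95 and -1.85 under MEKi. With the slide as a block they stood at 2.44 (adjusted p 0.0038) and 1.42 (adjusted p 0.015), and 5 of 18 feedback inhibitors and 9 of 19 cholesterol enzymes were called higher (medians 0.38 and 0.92), with 0 and 1 called lower. For ribosome biogenesis the median was 0.37, with 7 of 46 called higher, and 0.31 with 0 of 45 called with the block. The type I interferon genes had a BRAFV600E median of -0.21, with 1 of 38 called higher and 0 lower. With the block it was -0.57, with 0 called higher and 4 lower. Zbp1, at -0.66 in BRAFV600E (adjusted p 0.21), was at -1.65 and called lower with the block (adjusted p 0.00557), whereas Isg15 was called in neither fit (-0.52, adjusted p 0.41, and -1.16, adjusted p 0.188). For MHC class II the median was -0.78, with 4 of 10 called lower, among them H2-Ab1 (-1.12, adjusted p 0.018), and -0.86 with 3 called lower with the block, where H2-Ab1 was not called (-1.33, adjusted p 0.0512). Il1rn, which fell by 2.10 under MEKi, was at -0.05 in BRAFV600E (adjusted p 0.97) and at 1.001 with the block (adjusted p 0.372), and Tubb2b, which rose by 1.94, was at -0.40 (adjusted p 0.28) and -0.67 (adjusted p 0.218). Genes of G2 and mitosis were called higher in BRAFV600E in 15 of 40 cases (median 0.56) and, with the block, in 2 of 39 (median 0.66), against 0 of 40 called under MEKi. The Paneth cell list had a BRAFV600E median of -2.01 with 11 of 15 called lower (12 with the block), and 0 of 15 called under MEKi. For MHC class I the BRAFV600E median was -0.33, with 1 of 24 called higher and 3 lower. With the block it was -0.76, with 0 of 23 called higher and 13 lower. Of 17 GTPases 3 were called lower, and 5 with the block (medians -0.43 and -0.64). Of 29 T cell genes 5 and 13 were called lower (medians -0.60 and -1.15). Of 9 apolipoprotein L genes 3 and 6 were (medians -0.70 and -1.14). In these last 3 lists 0 were called higher in either fit. Whether the sizes in the 2 experiments differ was not tested.

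**Figure D5:**
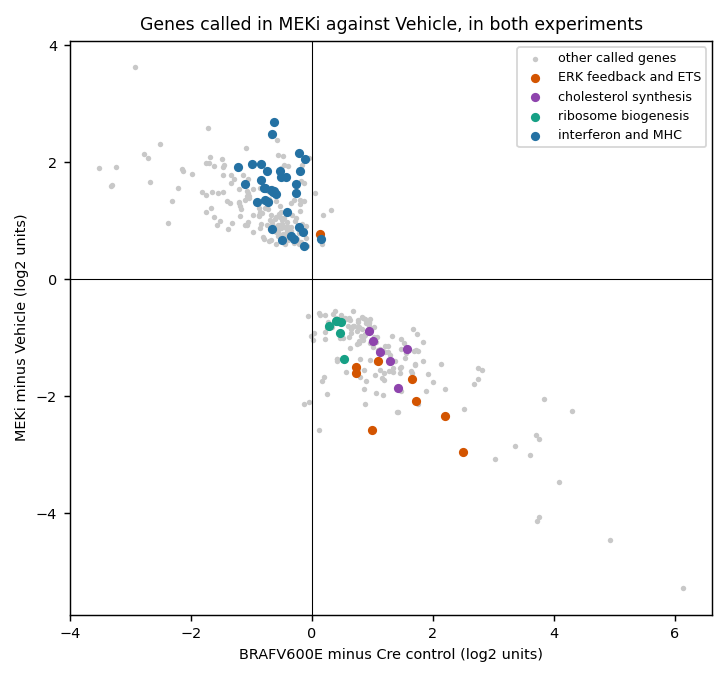
Log2 difference of genes called in MEKi against Vehicle (y axis) plotted against their difference in BRAFV600E against Cre control (x axis), with ERK feedback and ETS, cholesterol, ribosome biogenesis, and interferon and MHC genes coloured. Most points lie in the upper left and lower right parts, where 199 of 206 genes that rose and 169 of 173 that fell have opposite signs; choosing genes by their call under MEKi fixed the y axis only.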

How the data were processed

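RNA was hybridised to 1-colour Agilent SurePrint G3 Mouse arrays (Cy3), 1 array per mouse, so p-values measure the spread between mice. Per the file headers and the submitters' processing notes, the authors extracted each scan with Agilent Feature Extraction 10.5.1.1, which wrote a background-subtracted processed intensity for 59305 gene spots and 0 or 1 marks for signal well above background, saturation and outliers. The deposited series table of processed intensities lay within 0.5% of the scanner values on every array and served only as the unscaled alternative.

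From these, log2 intensities minus each array's 75th percentile were computed, without control or outlier spots and with repeated spots averaged. Of 56605 probes, 34615 were named by accession, 9170 by symbol and 283 by synonym through RefSeq, and 12537 stayed unnamed. The probe with the highest mean level across all 20 arrays stood for a gene, and a gene was tested if 4 or more of the 8 arrays (6 or more of the 12 for BRAFV600E) had that probe well above background. Probe positions are in mm9, as the files give them, and no annotation of that build was used, so exons and introns are not assigned. limma 3.58.1 (lmFit and eBayes, R 4.3.3, two-sided, no covariates) was fitted for each comparison on its own arrays, and was tested on simulated data. Replicates are numbered in accession order.

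Genes were named from a set picked by rule. It held the 12 largest called rises and falls, and up to 6 called members and the key genes of each of 64 lists. It also held the 10 largest rises and falls called in every fit without 1 array. Only part of this set is named, and which part was not fixed by rule. Dusp16, H2-Eb1, Mboat1, Pgap1, Pipox and Vil1 were added after their values were seen. Members and lists were chosen with earlier results of these data known. Of 1500 list entries 1478 were on the arrays and 1409 were tested. A list is described by counts and its median, with no set test. A bound sets the bright group's mean against the dimmest signal well above background on each array. Alternatives varied background correction, scaling, filter, probe choice, moderation, array weights, arrays left out, Y-linked signal, array column and the arrays fitted. Members of the lists that are counted are in part not reported by name.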

Additional observations from a re-analysis of the deposited data

Results flagged for a closer look

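In each group of 4 arrays, an array was marked when its gap to the nearest other array passed Dixon's critical share of the group's range. Of 333 groups of levels examined (genes and list means), 32 were marked, where chance marks about 0.05 of them. Vehicle 2 and MEKi 2 were each the marked array in 8 groups, Vehicle 3 in 7, and the other arrays in 1 to 3.

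Vehicle 2 was high for Cpa1 (gap over range 0.99) and the mean of the pancreas list (0.976), the gastric list (0.899) and the Reg family (0.83). It was low for the sterol control list (0.953), Gcg (0.889), the brush border list (0.867) and Prss12 (0.861). MEKi 2 was low for Psmb9 (0.902), Nlrc5 (0.866), the MHC class II list (0.866), Irgm2 (0.846), Igtp (0.834) and the Notch list (0.855), and for Idi1 (0.835) and Rrp12 (0.832), a ribosome biogenesis gene. Vehicle 3 was high for Rrp12 (0.863), Fdft1 (0.854), the EGF family list (0.853) and Phlda1 (0.832), and low for H2-T3 (0.91), Irf1 (0.878) and Pmaip1 (0.841).

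The other marks were single genes or lists: Cldn14 (0.926), Pcna (0.862) and the pancreas list (0.896) for MEKi 3, Sfrp5 (0.903) and Srm (0.878) for MEKi 1, H2-Aa (0.877) and Ankrd22 (0.836) for MEKi 4, Spry2 (0.877) for Vehicle 1, and Krt7 (0.832) for Vehicle 4. The causes of these gaps were not tested.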

How the results depend on the processing

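All 390 calls kept their direction in each fit of genes that included them. In fits that only left out or weighted arrays, or took the array column as a block, this followed from groups that did not overlap. Of 161 called genes with more than 1 measurable probe, 25 had a probe of the opposite sign. The number of calls was 394 with quantile normalization, 464 with normexp, 289 with median scaling, 478 with genes above background on every array, 307 with the mean of all probes, 364 when every probe was tested, 561 with trend and robust moderation and 537 with all 20 arrays in 1 fit. It was 73 without scaling between arrays, 242 without a filter on dim probes and 1003 with array weights. It was 53 with a covariate for Y-linked signal, 44 with that covariate and without Vehicle 2, 78 on the arrays with a high Y-linked signal and 16 with the array column as a block. Leaving out 1 array gave 76 to 378 calls. In BRAFV600E against Cre control the 2373 calls became 4652 with normexp, 9314 without scaling and 1533 with the slide as a block, and 1442 to 2874 with 1 array left out. The split of calls there moved from 49.6% higher to 34.3%, 98.1% and 30.3% in those first 3 settings, and to 73.5% with median scaling. The overlap counts stayed within 1.5 times, but the share of genes called higher in BRAFV600E that fell under MEKi was 10.54% without and 20.26% with the slide as a block. The causes of these shifts were not tested. No paired analysis was possible because no label pairs a MEKi mouse with a Vehicle mouse. The array column is a position on the slide that sets 1 MEKi beside 1 Vehicle array, and as a block it pairs positions, not mice. With it, 1 of 19 feedback inhibitors, 0 of 20 cholesterol enzymes and 0 of 46 genes of the ribosome biogenesis list were called. In the interferon and MHC lists, 1 of 17 GTPases, 1 of 38 type I genes, 0 of 23 MHC class I and 0 of 10 class II genes were called. Because the block is balanced over the groups, it cannot change a gene's difference, only its call, so it did not test the medians.

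Of 122 of the named genes, none changed direction in any fit. Where groups did not overlap, several of these fits could not have changed it. Of the 122, 67 lost their call with the Y-linked covariate and 81 with the column block, and 24 without Vehicle 2, where 2 gained one. Dim probes and 4 arrays a group limit what can be called.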
